A study of Mus musculus with 27 samples.

Results

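The 10 genes described here are markers of plasma cells, the cells that secrete antibody: Jchain, Mzb1, Derl3, Xbp1, Prdm1, Irf4, Pou2af1, Sdc1, Tnfrsf13b and Tnfrsf17. They were chosen by name, as the rows of the count table whose Ensembl identifier carries one of these symbols in the GENCODE M21 annotation, and they are 10 of 55487 genes in the table. RNA-seq was run on contralateral hippocampi and cortices of male wild-type C57Bl/6J mice, 8 weeks old, that received an infusion into the right lateral ventricle for 14 days at 0.25 μl/h. The infusate was PBS (5 hippocampi, 5 cortices), the control antibody pCtrl (4 hippocampi, 5 cortices) or α-IgLON5#1, human autoantibodies against the neuronal surface protein IgLON5 (4 hippocampi, 4 cortices). The 27 libraries came from 14 mice, 13 of which gave both tissues, and mice are named here by the number in their labels. All groups share the pump and the cannula, so the groups differ in the infusate and no group is free of surgery. The sample labels call the control a monoclonal human IgG, whereas the paper describes IgG from the serum of a healthy person, and the name pCtrl is used here for either.

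The libraries held 19385642 to 58550621 counts, with the hippocampal α-IgLON5#1 libraries among the shallower ones (19428512 to 32776892). The labels give neurons as the cell type, but the material is tissue: the summed level of 5 neuron markers was 4619 to 7061 CPM (counts scaled to the TMM-adjusted size of the library), beside 173 to 567 CPM for 6 macrophage and microglia markers. Between PBS cortices and PBS hippocampi, 4 of 5 cortical markers were called higher in cortex (Cux2, log2 fold change 1.91) and 3 of 5 hippocampal markers lower (Prox1, -3.10). Of the other 2 hippocampal markers, Neurod6 (-0.52) was lower and Wfs1 (0.69) was higher in cortex, both past the p threshold with folds under 2. Of the 10 genes, 9 passed the filter of at least 10 counts in at least 4 libraries. Mzb1 did not, with 0 to 26 counts per library, and its values below come from a fit without that filter.

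Plasma cells arise from activated B cells, which shut down the B cell programme and enlarge the endoplasmic reticulum (ER) to fold and export immunoglobulin. The transcription factors Irf4 and Prdm1 (Blimp-1) establish this state, Xbp1 builds the secretory machinery, and Pou2af1 (OCA-B) assists octamer-binding factors at immunoglobulin promoters. Jchain links IgM and IgA units into polymers, Mzb1 is a chaperone of immunoglobulin assembly in the ER, and Derl3 helps to remove misfolded proteins from it. On the surface, Sdc1 (CD138) is a heparan sulfate proteoglycan, while Tnfrsf13b (TACI) and Tnfrsf17 (BCMA) bind the survival ligands APRIL and BAFF. In healthy brain parenchyma plasma cells are scarce, and several of these genes, Xbp1 above all, are also used by other cells.

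The 250 bases before the start site are shown for the 4 genes that rose in the hippocampus together, Jchain, Irf4, Pou2af1 and Tnfrsf13b, and for Derl3, whose window alone among the members holds a complete ER stress element. The windows are RefSeq sequence of build GRCm38.p6, read in the direction of the gene: chr5:88527898-88528147 (minus strand) for Jchain, chr13:30748983-30749232 for Irf4, chr9:51213440-51213689 for Pou2af1, chr11:61126505-61126754 for Tnfrsf13b and chr10:75893148-75893397 for Derl3 (plus strand for the last 4). Capitals mark matches, on either strand, to any of 6 motifs: the octamer ATGCAAAT, the IRF element (GAAA and GAAA with any 2 bases between them), the ETS-IRF composite (GGAA and GAAA, spaced likewise), the XBP1 element TGACGTGG, CCACG, which is the end of the ER stress element, and the whole of that element, CCAAT and CCACG on 1 strand with 9 bases of any kind between them.
Jchain: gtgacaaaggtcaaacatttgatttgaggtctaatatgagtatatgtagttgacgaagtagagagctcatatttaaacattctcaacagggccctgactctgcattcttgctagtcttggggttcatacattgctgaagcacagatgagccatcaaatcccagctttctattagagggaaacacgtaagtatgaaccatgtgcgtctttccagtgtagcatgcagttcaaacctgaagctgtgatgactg
Irf4: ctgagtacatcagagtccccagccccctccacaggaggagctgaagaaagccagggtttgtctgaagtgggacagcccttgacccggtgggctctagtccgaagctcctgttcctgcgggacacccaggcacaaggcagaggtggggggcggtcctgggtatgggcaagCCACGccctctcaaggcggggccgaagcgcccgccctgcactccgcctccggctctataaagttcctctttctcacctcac
Pou2af1: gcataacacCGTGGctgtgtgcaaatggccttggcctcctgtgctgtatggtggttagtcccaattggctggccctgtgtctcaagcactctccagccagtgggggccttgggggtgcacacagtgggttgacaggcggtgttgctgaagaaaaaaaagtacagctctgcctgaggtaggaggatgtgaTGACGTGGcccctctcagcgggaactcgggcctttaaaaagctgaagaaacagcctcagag
Tnfrsf13b: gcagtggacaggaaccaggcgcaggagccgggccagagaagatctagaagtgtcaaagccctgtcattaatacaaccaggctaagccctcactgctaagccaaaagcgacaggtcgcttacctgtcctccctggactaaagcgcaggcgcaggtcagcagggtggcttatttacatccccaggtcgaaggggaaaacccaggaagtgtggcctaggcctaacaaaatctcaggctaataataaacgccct
Derl3: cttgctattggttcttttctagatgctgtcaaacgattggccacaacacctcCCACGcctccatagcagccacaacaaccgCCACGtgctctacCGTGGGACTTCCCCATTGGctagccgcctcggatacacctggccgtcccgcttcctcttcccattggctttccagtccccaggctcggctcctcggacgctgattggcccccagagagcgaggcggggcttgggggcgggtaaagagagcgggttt

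In Pou2af1 the XBP1 element lies 61 bases before the start, a motif held by 0.563% of the 32851 RefSeq promoter windows of this length, and it overlaps 1 of the 2 CCACG matches there. The Derl3 window holds the whole ER stress element on the other strand, 156 bases before the start, which 0.113% of windows hold, and 3 CCACG matches in all, 1 of them within the element. This longest motif was added after the CCACG matches in the window had been seen. CCACG alone is in 28.3% of windows, and in 5 of the 9 members with a window (Sdc1, Derl3, Prdm1, Irf4 and Pou2af1). Tnfrsf17 has an IRF element (2.98% of windows) on the other strand, and no member has an octamer (1.6%) or an ETS-IRF composite (2.3%) in its window. These are matches of letters, and no binding was measured.

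The level of each gene per length shows what the control tissue holds. In CPM per kilobase of exon, Xbp1 stood at 18.9 ± 1.46 (SD, n = 5) in PBS hippocampi, and the range of its libraries (17.3 to 20.7) was apart from that of any other member. Derl3 (0.558 ± 0.122), Tnfrsf13b (0.449 ± 0.0886) and Sdc1 (0.415 ± 0.117) followed, and then Tnfrsf17 (0.238 ± 0.0468), Jchain (0.198 ± 0.0602) and Prdm1 (0.132 ± 0.0404). Irf4 (0.0798 ± 0.0172), Mzb1 (0.0411 ± 0.0225) and Pou2af1 (0.0233 ± 0.0202) were lowest, and each neighbour in this order below Xbp1 overlapped the next within the spread of the libraries. In the PBS cortices the order was the same apart from an exchange of Pou2af1 and Mzb1 at its end. Between PBS cortices and hippocampi 0 of 9 members were called, against 2.7% of all genes called higher and 2.87% lower in cortex. Xbp1 alone passed the p threshold, as did 14.1% of all genes in this direction, at a log2 fold change of 0.27 ± 0.09 (SE, adjusted p = 0.0238) in favour of cortex. That p was above 0.05 without PBS mouse 14 (0.0984), 32 (0.0502), 33 (0.0789) or 74 (0.0677).

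In hippocampi of α-IgLON5#1 mice, 4 of the 9 tested members rose against pCtrl and none fell. To be called, a gene needed more than a 2-fold difference as well as an adjusted p below 0.05. Of the 20271 genes tested, 2.21% were called higher and 0.237% lower. Jchain rose most, 86.6-fold, followed by Pou2af1 (22-fold), Irf4 (6.37-fold) and Tnfrsf13b (2.62-fold). Pou2af1 passed the count filter only through α-IgLON5#1 libraries, with 0 to 8 counts in every control library, so its place among the tested genes depends on the group where it was high. Derl3 and Prdm1 passed the p threshold alone, so that 6 members were past it, beside 4.23% of all genes in this direction, and Sdc1, Xbp1 and Tnfrsf17 passed neither. The median log2 fold change over the 9 members was 0.83, beside 0.00 over all genes. In 4 of 10 members every α-IgLON5#1 library lay above every pCtrl library (Jchain, Prdm1, Irf4 and Tnfrsf13b), which held for 6.68% of all genes. In such bulk tissue, more cells of a kind and more RNA per cell cannot be told apart.

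**Figure D1:**
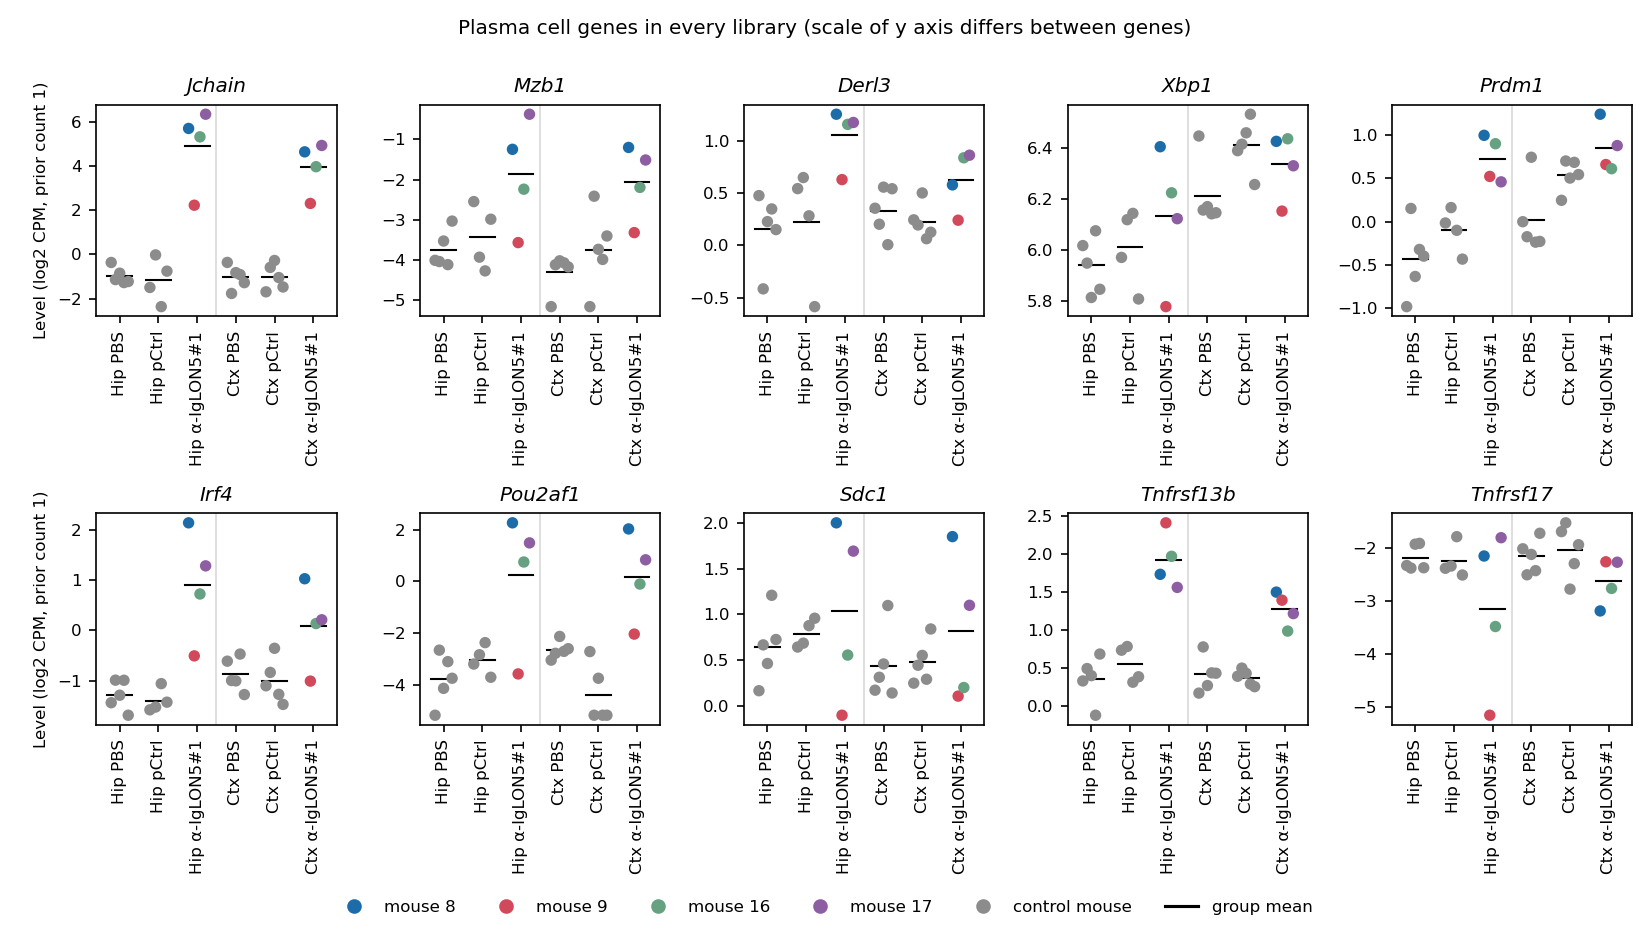
Level of each plasma cell gene in each of the 27 libraries (log2 CPM with a prior count of 1, y axis scaled per gene), by tissue (Hip, hippocampus, Ctx, cortex) and infusate, with bars at the group means. Jchain, Irf4, Pou2af1 and Tnfrsf13b lie higher in most α-IgLON5#1 libraries, mouse 9 is the lowest of them for Jchain and Pou2af1, and Xbp1 spans a narrow range throughout.

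Among the genes of the secretory apparatus, Jchain is encoded at chr5:88519809-88527891 on the minus strand (GRCm38). Its level was 52.4, 4.67, 40.2 and 82 CPM in the hippocampi of α-IgLON5#1 mice 8, 9, 16 and 17. In pCtrl hippocampi it was 0.327, 0.959, 0.167 and 0.565 CPM (mice 10, 15, 37 and 75), and in PBS hippocampi 0.75, 0.427, 0.528, 0.386 and 0.4 CPM (mice 14, 32, 33, 38 and 74). The groups did not overlap, and even mouse 9, the lowest of the α-IgLON5#1 mice, was above all 9 control hippocampi. The log2 fold change was 6.44 ± 0.65 (SE) against pCtrl (adjusted p = 8.44e-07) and 6.53 ± 0.61 against PBS (adjusted p = 5.03e-08). Expressed per kilobase of exon, Jchain reached 17.8 ± 12.7 (SD, n = 4), a level that overlapped that of Xbp1 in the same libraries (21.8 ± 3.84).

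Mzb1, on chromosome 18, gave 8, 1, 6 and 26 counts in the hippocampi of α-IgLON5#1 mice 8, 9, 16 and 17. It gave 1 to 7 counts in the pCtrl and 1 to 4 counts in the PBS hippocampi. Mice 8, 16 and 17 were above all control hippocampi in CPM, and mouse 9 was among them. Without the count filter the log2 fold change was 2.75 ± 0.62 (SE) against PBS (adjusted p = 0.00723) and 2.18 ± 0.61 against pCtrl (adjusted p = 0.0382). The call against pCtrl was lost when any of 5 hippocampi was left out, those of α-IgLON5#1 mice 17 (log2 fold change 1.43, adjusted p = 0.348) and 8 (2.19, 0.093) and of pCtrl mice 15 (1.95, 0.103), 37 (1.92, 0.165) and 75 (2.34, 0.0527). Of the 1215 exonic bases of Mzb1, 695 are shared with a gene model on the same strand that has 0 counts in every library, so how reads were split between them is uncertain.

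Derl3 (chr10:75893413-75895941, plus strand) stood at 2.36, 1.52, 2.21 and 2.24 CPM in the hippocampi of mice 8, 9, 16 and 17. In pCtrl hippocampi it was 1.43, 1.54, 1.19 and 0.638 CPM, so that only mouse 9 fell within the control range. The log2 fold change of 0.79 ± 0.22 (SE, adjusted p = 0.0291) was under the fold threshold, as was that of 0.93 ± 0.21 against PBS (adjusted p = 0.00688). Against pCtrl the adjusted p was above 0.05 without the hippocampus of α-IgLON5#1 mouse 8 (0.0941) or 17 (0.0589) or of pCtrl mouse 37 (0.0904) or 75 (0.0743). It was also above it without the count filter (log2 fold change 0.76, adjusted p = 0.0583) and with the compared groups alone in the fit (0.79, 0.156). Xbp1 (chr11:5520659-5525893, plus strand), whose product drives Derl3 in secretory cells, was at 71 ± 12.5 CPM (SD, n = 4) against 64.7 ± 6.79 in pCtrl hippocampi. The groups overlapped and the log2 fold change was 0.13 ± 0.10 (SE, adjusted p = 0.469). Gene counts do not separate the spliced from the unspliced Xbp1 transcript.

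Of the transcription factors, Irf4 (chr13:30749226-30766976, plus strand) was at 4.38, 0.676, 1.62 and 2.41 CPM in the hippocampi of mice 8, 9, 16 and 17. The 4 pCtrl hippocampi held 0.307 to 0.452 CPM and the 5 PBS hippocampi 0.283 to 0.476 CPM, without overlap. Its log2 fold change was 2.67 ± 0.40 (SE, adjusted p = 9.94e-05) against pCtrl and 2.52 ± 0.38 (adjusted p = 4.71e-05) against PBS. Pou2af1 (chr9:51213708-51240080, plus strand) was at 4.77, 0.0563, 1.65 and 2.78 CPM in the same mice. In pCtrl hippocampi it was 0.0817, 0.113, 0.167 and 0.0491 CPM, and in mouse 9 a count of 1 left it inside that range. For Pou2af1 the log2 fold change was 4.46 ± 0.79 (SE, adjusted p = 0.000632) against pCtrl and 5.03 ± 0.78 (adjusted p = 8.34e-05) against PBS, the latter being 5.65 without PBS mouse 32.

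Prdm1 (chr10:44437177-44528501, minus strand) was at 1.97, 1.41, 1.84 and 1.35 CPM in the hippocampi of mice 8, 9, 16 and 17. All lay above the 0.712 to 1.09 CPM of the pCtrl and the 0.478 to 1.08 CPM of the PBS hippocampi. Its log2 fold change was 0.83 ± 0.23 (SE, adjusted p = 0.0298) against pCtrl, which is under the fold threshold. Against PBS it reached 1.12 ± 0.22 (adjusted p = 0.00179), which is past it. The adjusted p against pCtrl was above 0.05 without the hippocampus of α-IgLON5#1 mouse 8 (0.108) or 16 (0.0574) or of pCtrl mouse 10 (0.0678), 37 (0.0914) or 75 (0.0731). The same held without the count filter (log2 fold change 0.79, adjusted p = 0.0603) and with the compared groups alone (0.83, 0.0708). Prdm1, which acts in B cells as a repressor of the B cell programme, is also transcribed in other immune and endothelial cells.

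Tnfrsf13b was the surface gene that rose (chr11:61126755-61149372, plus strand). It was at 3.3, 5.29, 3.89 and 2.92 CPM in the hippocampi of mice 8, 9, 16 and 17, against 1.63, 1.69, 1.21 and 1.28 CPM in pCtrl hippocampi. PBS hippocampi held 0.89 to 1.58 CPM. The groups did not overlap, and here mouse 9 was the highest. The log2 fold change was 1.39 ± 0.18 (SE, adjusted p = 1.33e-05) against pCtrl and 1.58 ± 0.17 (adjusted p = 5.45e-07) against PBS.

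Tnfrsf17, the receptor typical of long-lived plasma cells (chr16:11313812-11320074, plus strand), had 4, 0, 2 and 9 counts in the hippocampi of the same mice, or 0.197, 0, 0.0613 and 0.258 CPM. The pCtrl hippocampi had 6 to 11 counts, or 0.147 to 0.262 CPM, so that mice 8 and 17 lay inside this range and mice 9 and 16 below it. Its log2 fold change was -0.40 ± 0.45 (SE, adjusted p = 0.668), and from -1.08 (without α-IgLON5#1 mouse 17) to -0.11 (without mouse 16) with 1 library left out. Sdc1 (chr12:8771323-8793715, plus strand) was at 3.99, 0.901, 1.44 and 3.21 CPM in the hippocampi of mice 8, 9, 16 and 17 and at 1.53 to 1.92 CPM in pCtrl. Mice 8 and 17 were above, and mice 9 and 16 below, all pCtrl hippocampi. Sdc1 thus had a log2 fold change of 0.49 ± 0.35 (SE, adjusted p = 0.45).

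Against PBS, 5 of the 9 tested members were called in the hippocampus, Prdm1 in addition to the 4 above, where 2.56% of all genes were called higher and 0.109% lower. With Derl3, 6 members were past the p threshold, beside 3.81% of all genes. Every α-IgLON5#1 library lay above every PBS library in 5 of 10 members, against 4.49% of all genes, the 5 being Jchain, Derl3, Prdm1, Irf4 and Tnfrsf13b. Between the control groups, pCtrl against PBS, edgeR called 0 members in hippocampi, where it called 0.0493% of all genes higher and 0.0148% lower. The member count at an unadjusted p under 0.05 was also 0, against 14% of all genes, and DESeq2 called 0. In cortices edgeR and DESeq2 again called 0 members, and 0% of all genes were called by edgeR. Xbp1 (log2 fold change 0.20) and Prdm1 (0.48) had an unadjusted p under 0.05 there, as had 8.14% of all genes. The comparisons with pCtrl and with PBS share the α-IgLON5#1 libraries and are not independent of each other.

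**Figure D2:**
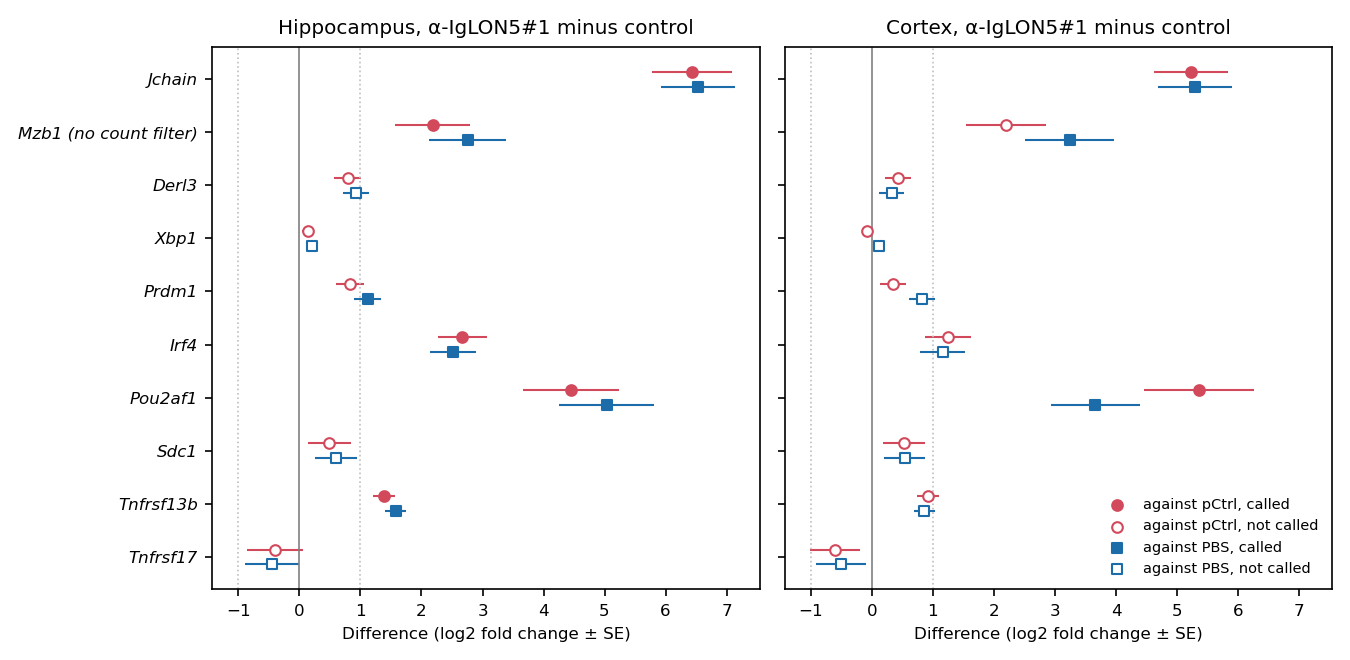
Difference of α-IgLON5#1 libraries from pCtrl (circles) and PBS (squares) for each plasma cell gene in hippocampus and cortex, as log2 fold change with SE bars. Filled symbols passed an adjusted p of 0.05 and a fold change of 2 (dotted lines). Jchain and Pou2af1 are called in all 4 comparisons, with log2 fold changes from 3.66 to 6.53.

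In cortices of α-IgLON5#1 mice, 2 of the 9 tested members rose against pCtrl, Jchain 37.6-fold and Pou2af1 41.1-fold, where 2.14% of all genes were called higher and 0.0247% lower. As in the hippocampus, Pou2af1 is among the tested genes only through the α-IgLON5#1 libraries. Jchain was at 25.1, 4.94, 15.7 and 30.7 CPM in the cortices of mice 8, 9, 16 and 17. In pCtrl cortices it was 0.282, 0.639, 0.801, 0.456 and 0.333 CPM (mice 10, 11, 15, 37 and 75), and PBS cortices held 0.266 to 0.752 CPM. The groups did not overlap, and mouse 9 was again the lowest of the 4. The log2 fold change of Jchain was 5.23 ± 0.61 (SE, adjusted p = 9.05e-06) against pCtrl and 5.30 ± 0.60 (adjusted p = 3.82e-06) against PBS.

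Pou2af1 was at 4.05, 0.217, 0.905 and 1.76 CPM in the cortices of mice 8, 9, 16 and 17. The pCtrl cortices held 0 to 0.125 CPM, with 3 of 5 at 0 counts, and the PBS cortices 0.0939 to 0.202 CPM. No library overlapped, although mouse 9, with 6 counts, was only just above the highest PBS cortex. The log2 fold change was 5.36 ± 0.90 (SE, adjusted p = 0.000421) against pCtrl and 3.66 ± 0.73 (adjusted p = 0.00231) against PBS. The control levels rest on counts of 0 to 6. Against pCtrl the log2 fold change was 4.57 without the cortex of α-IgLON5#1 mouse 8 and 6.46 without that of pCtrl mouse 10, and against PBS it was 2.88 without α-IgLON5#1 mouse 8, with an adjusted p under 0.05 in all 3 fits.

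Tnfrsf13b stood at 2.8, 2.6, 1.95 and 2.3 CPM in the α-IgLON5#1 cortices, above the 1.16 to 1.38 CPM of all pCtrl and the 1.1 to 1.69 CPM of all PBS cortices. Its log2 fold change of 0.92 ± 0.18 (SE, adjusted p = 0.00175) against pCtrl passed the p threshold, as the third member beside 3.01% of all genes, and not the fold threshold. Irf4 was at 2.01, 0.469, 1.07 and 1.13 CPM in mice 8, 9, 16 and 17 and at 0.333 to 0.753 CPM in pCtrl cortices, with mouse 9 inside the control range. Its log2 fold change of 1.25 ± 0.38 (SE) had an adjusted p of 0.0719, which was under 0.05 with DESeq2 (0.0432), without the cortex of pCtrl mouse 15 (0.0436) and without that of α-IgLON5#1 mouse 9 (0.0219).

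The remaining members did not pass the p threshold in the cortex against pCtrl. Their log2 fold changes ran from -0.61 (Tnfrsf17) over -0.07 (Xbp1), 0.34 (Prdm1), 0.43 (Derl3) and 0.52 (Sdc1) to 2.20 for Mzb1, whose adjusted p without the count filter was 0.0922. Mzb1 had 15, 2, 8 and 18 counts in the cortices of mice 8, 9, 16 and 17, and 0 to 3 counts in each control cortex. Without the cortex of pCtrl mouse 11 that p was 0.047, and without that of α-IgLON5#1 mouse 9 it was 0.0424. Against PBS Mzb1 was called without the filter, at 3.24 ± 0.73 (SE, adjusted p = 0.00747). Every α-IgLON5#1 cortex lay above every pCtrl cortex in 3 of 10 members, beside 3.68% of all genes. Against PBS 2 of the 9 tested members were called in the cortex (2.24% of all genes were called higher and 0.00493% lower). Prdm1 (0.82, adjusted p = 0.0288) and Tnfrsf13b (0.86, adjusted p = 0.00263) passed the p threshold only, which made 4 members past it, beside 2.97% of all genes. For Prdm1 the adjusted p was above 0.05 without the cortex of α-IgLON5#1 mouse 8 (0.218) or 17 (0.0638) or of PBS mouse 14 (0.0666), 32 (0.0958), 38 (0.0786) or 74 (0.104). With the compared groups alone it was 0.151, at a log2 fold change of 0.84. In 4 of 10 members every α-IgLON5#1 cortex lay above every PBS cortex, beside 3.14% of all genes.

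Whether the response differed between the tissues was tested as an interaction. No member was called, and edgeR called 0% of all genes for the contrast with pCtrl. Irf4 had the smallest adjusted p there, 0.341, for a hippocampal log2 fold change that was 1.42 ± 0.56 (SE) above the cortical one, and it was the only member with an unadjusted p under 0.05, beside 10.6% of all genes. In the contrast with PBS all adjusted p-values of the members were 1, with Irf4 (1.36) and Tnfrsf13b (0.71) under 0.05 unadjusted, beside 3.32% of all genes. There 0.00493% of all genes were called higher in this contrast and 0% lower. DESeq2 called 0 members in either contrast. In single mice the Jchain level in the hippocampus was 2.09 (mouse 8), 0.946 (mouse 9), 2.56 (mouse 16) and 2.67 times (mouse 17) that in the cortex.

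The 4 α-IgLON5#1 mice differed from each other more than the groups' means convey. In both tissues Jchain ran in the order of mice 17, 8, 16 and 9, and Irf4, Pou2af1 and Sdc1 in the order of mice 8, 17, 16 and 9. Mzb1, Derl3 and Xbp1 were also lowest in mouse 9 in both tissues. Relative to the mean of the pCtrl hippocampi, mouse 9 was higher by 3.39 for Jchain and 1.86 for Tnfrsf13b on the log2 CPM scale, and at -0.55 for Pou2af1, -0.13 for Mzb1 and -0.90 for Sdc1. For Prdm1 and Tnfrsf13b mouse 9 was the lowest in neither tissue.

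**Figure D3:**
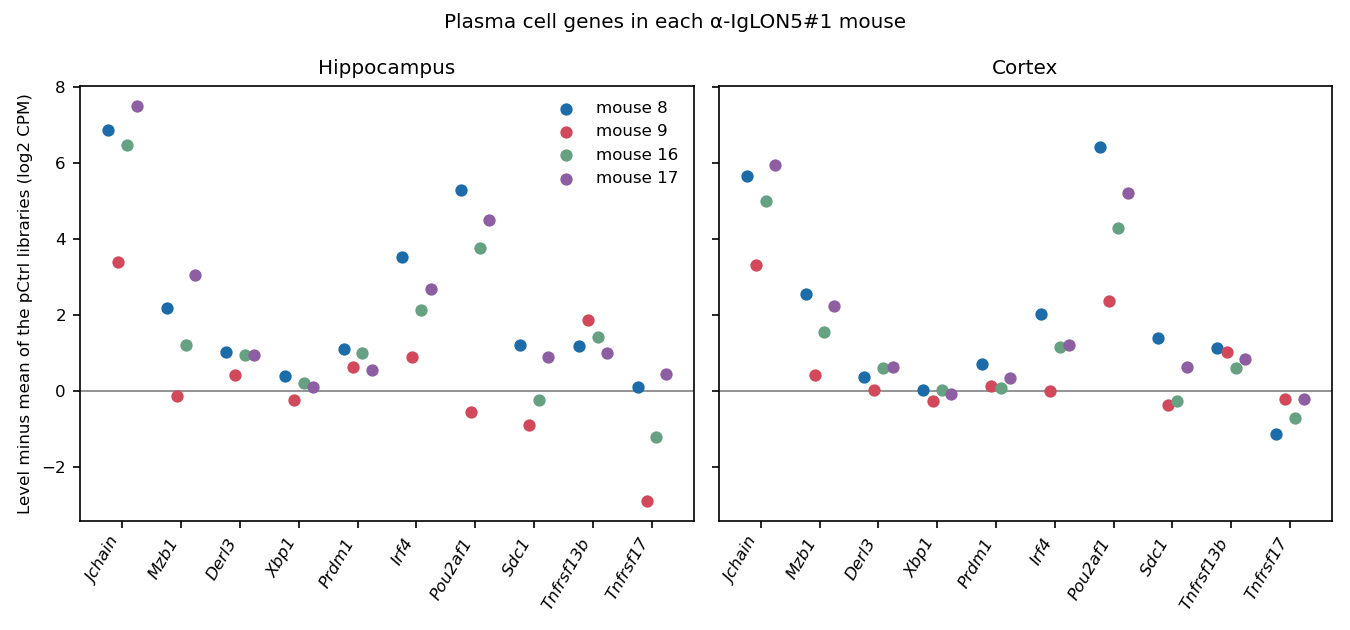
Level of each plasma cell gene in each α-IgLON5#1 mouse minus the mean of the pCtrl libraries of the same tissue (log2 CPM). For Jchain all 4 mice are above 0 in both tissues, while for Pou2af1 and Mzb1 the hippocampus of mouse 9 is below 0, and for Tnfrsf13b all mice lie above it.

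Markers of other cells moved with these mice. The summed level of 6 macrophage and microglia markers was 567 CPM in the hippocampus of mouse 9, the highest of all, and 291 to 431 CPM in those of mice 8, 16 and 17, against 173 to 230 CPM in the control hippocampi. The summed level of 6 B cell markers was lowest in mouse 9 among the α-IgLON5#1 hippocampi (3.66 CPM), where the other 3 had 4.57 to 9.99 CPM and the controls 0.824 to 1.58 CPM. The part of either in the levels of the plasma cell genes was not tested. Without the hippocampus of mouse 9 the same number of members, 4, was called against pCtrl, with log2 fold changes of 6.81 for Jchain, 4.83 for Pou2af1, 2.95 for Irf4 and 1.20 for Tnfrsf13b.

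The α-IgLON5#1 mice carry numbers from 8 to 17, whereas the control mice include numbers up to 75. Within the mice numbered 8 to 17 (2 pCtrl hippocampi and 3 pCtrl cortices), only Jchain stayed called in the hippocampus, at 6.10 ± 1.14 (SE, adjusted p = 0.0487). The log2 fold changes of the others were 4.52 for Pou2af1 (adjusted p = 0.182), 2.84 for Irf4 (0.111) and 1.20 for Tnfrsf13b (0.0616). Derl3 was at 0.49 (adjusted p = 0.387) and Prdm1 at 0.67 (0.274). In the cortex no member was called within this range, with 5.04 for Jchain (adjusted p = 0.0688), 4.71 for Pou2af1 (0.158) and 0.86 for Tnfrsf13b (0.123). What the numbers stand for beyond the mouse is not given in the sources used here.

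Jchain pairs with IgM and IgA, and its counts were set beside those of the immunoglobulin heavy chain constant genes. In the α-IgLON5#1 hippocampi there were 7.22, 7.22, 12.7 and 8.81 Jchain counts for 100 heavy chain counts in mice 8, 9, 16 and 17, although Jchain itself ranged from 83 to 2860 counts. In their cortices the ratio was 9.47, 7.5, 9.56 and 6.36. Relative to Ighm and Igha alone there were 17, 11, 20.6 and 20.7 Jchain counts for 100 in the hippocampi of mice 8, 9, 16 and 17, and 13.5, 11.6, 15.4 and 23.6 in the cortices. Mouse 9 was thus within the range of the other 3 mice by the first ratio, and the lowest of the 4 in both tissues by the second. Control libraries had 1.24 to 10.2 Jchain counts for 100 of Ighm and Igha. Control cortices had 1.01 to 3.72 and control hippocampi 1.38 to 8.56 Jchain counts for 100 heavy chain counts, from 7 to 51 Jchain counts a library. These control libraries held Ighm at 6.80 to 24.5 CPM but the light chain gene Igkc at only 0.0336 to 2.48 CPM. How far such Ighm counts without Igkc enter the ratios was not tested. This includes mouse 9, where Ighm was at 34.0 CPM in the hippocampus and 38.5 CPM in the cortex. In mouse 17 Ighg2b, the constant gene of an IgG subclass, had more counts than Ighm in the hippocampus (15067 against 11493) and the cortex (15898 against 6505), and in mouse 8 in the hippocampus (6262 against 4527). Ighm had more counts than Ighg2b in the other 5 α-IgLON5#1 libraries. Reads of constant genes with similar sequence may be split unevenly by the counting.

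**Figure D4:**
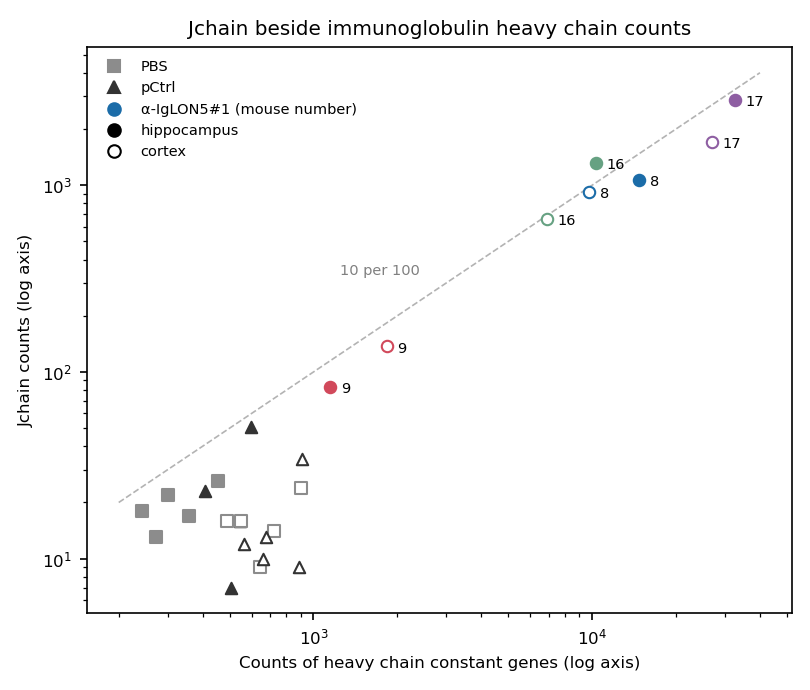
Jchain counts against the summed counts of heavy chain constant genes in each library (both axes logarithmic, filled symbols hippocampus, open symbols cortex). The 8 α-IgLON5#1 libraries lie at 6.36 to 12.7 Jchain counts per 100 heavy chain counts, near the dashed line of 10 per 100, and the control libraries lie at the lower left.

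Of the 12 immunoglobulin constant genes 11 were tested, and 10 rose in the hippocampus and 9 in the cortex against pCtrl, among them Ighm (log2 fold change 4.24 in the hippocampus, adjusted p = 8.44e-07), Igkc (7.74, 8.44e-07), Iglc2 (8.73, 1.16e-06) and Igha (7.21, 1.57e-06). Of 6 B cell markers, 5 rose in the hippocampus and 3 in the cortex. They include Cd79b of the B cell receptor (3.11, adjusted p = 2.86e-05), the inhibitory receptor Cd22 (2.94, 0.000264) and Ms4a1, which encodes CD20 (3.46, 0.0266). Ms4a1, Iglc2 and Iglc3 had 8 or fewer counts in every control library and passed the filter only through α-IgLON5#1 libraries. Cd79b was raised in all 4 hippocampi, from 1.10 to 1.53 CPM against 0.0491 to 0.226 CPM in pCtrl. A longer list of 9 B cell surface genes, which shares 5 genes with the markers, had 5 of 8 tested genes called in the hippocampus and 3 in the cortex.

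Of 12 further plasma cell genes 11 were tested, and 1 rose in each tissue. In the hippocampus it was Tent5c, which stabilizes messenger RNA of secreted proteins (log2 fold change 1.55, adjusted p = 5.13e-06), and in the cortex Slamf7, a surface receptor (2.19, adjusted p = 0.00933). Tent5c ran from 6.50 to 10.0 CPM in the α-IgLON5#1 hippocampi and from 2.36 to 3.22 CPM in pCtrl. Fcrl5, below the count filter and chosen after its values were seen, had 1, 1, 7 and 11 counts in the hippocampi of mice 8, 9, 16 and 17 and 0 in all 9 control hippocampi.

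The programme of ER folding, export and degradation, which plasma cells depend on, was measured with 26 genes besides the members. None was called in either tissue, and the median log2 fold change against pCtrl was 0.11 in the hippocampus and 0.01 in the cortex. Past the p threshold in the hippocampus, with folds under 2, were Creld2 (0.35, adjusted p = 0.0361) and Edem2 (0.28, 0.0347), higher, and Dnajb9 (-0.33, 0.0329), lower, named after their values were seen. Cells of all kinds use these genes, and their summed level was 1592 to 1721 CPM in pCtrl and 1654 to 1810 CPM in α-IgLON5#1 hippocampi.

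Of the 3 other genes of the APRIL and BAFF system, Tnfsf13b (BAFF) rose in the hippocampus (log2 fold change 1.45, adjusted p = 0.00147), and none was called in the cortex. Tnfsf13b was at 1.92, 6.48, 4.23 and 1.49 CPM in the hippocampi of mice 8, 9, 16 and 17, so that mouse 9 was the highest, as it was for its receptor gene Tnfrsf13b. Mouse 17, the highest for Jchain, was within the 1.33 to 1.64 CPM of the PBS hippocampi. Among 7 genes that Prdm1 turns off in plasma cells, 1 was called in each tissue, Spib, a transcription factor of B cells and plasmacytoid dendritic cells (3.50 in the hippocampus, adjusted p = 0.000118, and 2.72 in the cortex). Spib, too, passed the count filter only through α-IgLON5#1 libraries (0 to 8 counts in every control library). Pax5, which holds the B cell identity, was not called (0.79 in the hippocampus, adjusted p = 0.421), and its highest hippocampal level, 1.23 CPM, was in mouse 8.

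**Figure D5:**
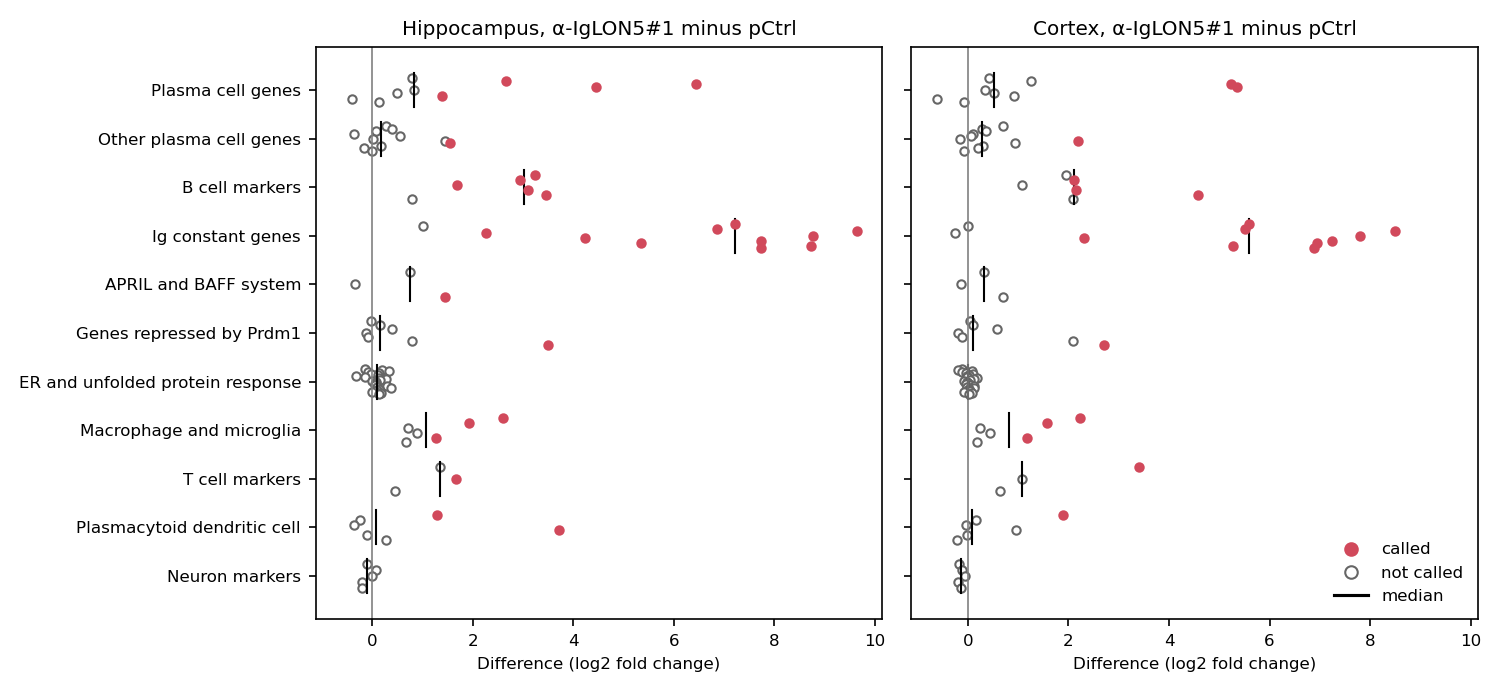
Log2 fold change of α-IgLON5#1 against pCtrl for each tested gene of 11 lists, in hippocampus and cortex, with bars at the median of a list and red points for called genes. Immunoglobulin constant genes and B cell markers have most of their genes called in the hippocampus, while the ER list has 0 of 26 called and a median near 0.

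Several members are also transcribed by other immune cells, so the markers of these were counted. Of 7 markers of plasmacytoid dendritic cells 6 were tested, and Ly6d (log2 fold change 3.72, adjusted p = 0.000796) and Bst2 (1.30, 0.0255) rose in the hippocampus, but not the defining receptor Siglech (0.28, adjusted p = 0.274), which was detected in every library. The summed level of this list was 408 to 444 CPM in α-IgLON5#1 and 417 to 493 CPM in pCtrl hippocampi, of which Pacsin1, a gene that neurons use, made up 374 to 412 and 390 to 471 CPM. The sum therefore does not measure these cells. Siglech, which microglia also use, was at 12.1 to 23.8 CPM and Ly6d at 0.0563 to 1.35 CPM in α-IgLON5#1 hippocampi. Of 7 T cell markers 3 were tested, and Cd4 rose in the hippocampus (1.67, adjusted p = 0.0128) and Cd3g in the cortex (3.41, adjusted p = 0.00683). Of 6 macrophage and microglia markers, 3 rose in either tissue, Adgre1 (2.61 in the hippocampus, adjusted p = 1.5e-06), Aif1 (1.93, 0.000344) and Itgam (1.26, 0.000252). In the hippocampus all 6 macrophage and microglia markers passed the p threshold against pCtrl, 3 of them with folds under 2, and in the cortex 3 passed it. The summed T cell level was 3.37 to 7.58 CPM in α-IgLON5#1 and 1.90 to 3.70 CPM in control hippocampi. The part of all these cells in the levels of Irf4, Prdm1, Tnfrsf13b and Xbp1 was not tested. Markers of the choroid plexus, meningeal fibroblasts, erythrocytes and neurons had 0 genes called in either tissue.

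For 3 members the genes with the most similar pattern over the 27 libraries were sought among all tested genes, with members and immunoglobulin genes set aside (Pearson r of log2 CPM, a description, since the libraries share tissue, infusate and mice). For Jchain they were C3 (r = 0.921), Pirb (0.917), Lyz2 (0.903), Slpi (0.9) and Spn (0.896). C3 encodes a complement component and Lyz2 the lysozyme of myeloid cells. Mzb1 was most like Slpi (0.861), Cd300lf (0.794), Ms4a7 (0.787), Tnfsf8 (0.787) and Pros1 (0.78). Derl3 had lower values, led by Bmf (0.745), Lag3 (0.741), Treml2 (0.729), Fes (0.723) and Nfam1 (0.722).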

How the data were processed

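Poly(A) RNA of hippocampi and cortices was sequenced from stranded, paired-end libraries, and the authors aligned the reads to GRCm38 with STAR at default settings. The deposited values are raw counts of reads per gene and library. The counting program, its annotation and its strand setting are not given in the sources used here. Of 55487 gene identifiers, 55227 were found in GENCODE M21 with the version removed. The members and the gene lists were chosen with earlier results of these data known.

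The filter kept the 20271 genes that reached 10 counts in 4 or more libraries. edgeR 4.0.16 in R 4.3.3 was used with TMM scaling and its quasi-likelihood test, in 1 fit of all 6 groups with no covariate, and p-values were adjusted by Benjamini-Hochberg over all genes tested. Calls needed an adjusted p below 0.05 with more than a 2-fold difference, and for an interaction the adjusted p alone. Levels are CPM with TMM scaling, and log2 CPM uses a prior count of 1. The script was tested on simulated counts. From each list up to 4 genes were named, those called with the smallest adjusted p in hippocampi against pCtrl. Genes named beyond that rule (Pax5, Siglech, Pacsin1, Slamf7, Cd3g, Fcrl5, Sdc2, Ighg2b, Iglc3, the ER genes and the tissue markers) were chosen after their values were seen. Some genes of the lists are counted but not reported here by name. Libraries of the same group differed by more than sampling noise (over 48 pairs, chi-square divided by its degrees of freedom was 4.42 or more). The paper describes the control mice as littermates, but which mice share a litter is not given in the sources used here, so litter was no term in the fit and p-values measure the spread between these mice. The number in a label was read as the mouse, so the 2 tissues of 13 mice share an animal. After group means were removed, the tissues of a mouse correlated at -0.0498 to 0.443 (median 0.194, above 0.1 in 8 of 13 mice). The values were 0.443, 0.42, 0.263 and 0.374 in α-IgLON5#1 mice 8, 9, 16 and 17, and -0.0498 to 0.214 in control mice. The cortical calls are therefore no separate replication of the hippocampal ones. Alternatives were DESeq2 1.42.0, other filters and thresholds, an animal block, the mice numbered 8 to 17, and each library left out in turn.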

Additional observations from a re-analysis of the deposited data

Results flagged for a closer look

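Of 60 combinations of a member and a group, 4 held a library that stood far from the others of its group by Dixon's criterion, and chance alone sets apart about 1 in 20 groups. Derl3 was at 1.52 CPM in the hippocampus of α-IgLON5#1 mouse 9, below the 2.21 to 2.36 CPM of the other 3 mice. In PBS cortices, Xbp1 was at 87.2 CPM in mouse 14 against 70.6 to 72 CPM in the others, and Prdm1 at 1.65 CPM in mouse 33 against 0.82 to 0.971 CPM. Mzb1 was at 0 CPM in the PBS cortex of mouse 14, where the other 4 had 1 count each (0.0275 to 0.0336 CPM).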

How the results depend on the processing

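Within the mice numbered 8 to 17, the count of members called higher against pCtrl went from 4 to 1 in the hippocampus and from 2 to 0 in the cortex, with fewer control libraries in the fit. Comparisons with PBS were not run there, since 1 PBS mouse has such a number. Without the fold threshold, 4 members instead of 2 were higher in α-IgLON5#1 than in PBS cortices, and 1 instead of 0 in PBS cortex against hippocampus. When single libraries were left out, the members called higher numbered 4 in every hippocampal fit against pCtrl, 5 to 6 against PBS, and 2 to 3 in the cortex against either control. The changes were that Derl3 passed the fold threshold against PBS without hippocampal PBS mouse 14 (1.01) or α-IgLON5#1 mouse 9 (1.03), Tnfrsf13b against pCtrl without cortical α-IgLON5#1 mouse 16 (1.02), Prdm1 against PBS without cortical PBS mouse 33 (1.05), and Irf4 against PBS without cortical α-IgLON5#1 mouse 9 (1.39, adjusted p = 0.0293), besides those given with Mzb1, Irf4, Derl3, Prdm1 and Xbp1 above. No called value changed its direction in any alternative run. Counts of 0 to 26 for Mzb1 and of 0 to 11 for Tnfrsf17 limit what these 2 genes can show.

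With the mouse as a replicate block, which pairs the 2 tissues of a mouse, 0 members were called in the tissue comparison and in both interactions, as without it. The block changed no call (Xbp1 0.27, adjusted p = 0.00111, in PBS cortex against hippocampus). Comparisons between infusates lie between mice and take no block.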

Other observations

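Relatives of the members moved in part. Of the 8 other IRF genes, 3 rose in the hippocampus against pCtrl, Irf8 (log2 fold change 1.38, adjusted p = 1.5e-06), Irf5 (1.00, 0.000576) and Irf7 (1.66, 0.0423), all transcription factors of myeloid or interferon responses. In the cortex Irf7 rose (2.51, adjusted p = 0.00188), while Irf8 (0.92) and Irf5 (0.93) passed the p threshold with folds under 2. None of the 3 other syndecans was called in either tissue, and Sdc2, a syndecan of neurons and stroma, passed the p threshold as lower in the hippocampus (-0.31, adjusted p = 0.0198) against pCtrl but not against PBS (-0.13, adjusted p = 0.463). Of 6 genes of dividing cells, Mki67 was called in the hippocampus (1.02, adjusted p = 0.017) and in the cortex (1.06, adjusted p = 0.0138) against pCtrl. Against PBS none of the 6 was called in either tissue (Mki67 0.64, adjusted p = 0.166, and 0.94, adjusted p = 0.0314). Of 7 markers of conventional dendritic cells 6 were tested, and Itgax, which microglia also use, rose in the hippocampus (2.59, adjusted p = 5.42e-06) and the cortex (3.10, adjusted p = 3.64e-06).

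Among the controls, pCtrl mouse 15 had the most Jchain counts in both tissues (51 in the hippocampus and 34 in the cortex), with 60 and 32 counts of Igha and 132 and 58 counts of Igkc. Ighg2b had 7 to 38 counts in the control libraries of mice 10, 11, 14 and 15 and 0 to 3 counts in those of mice 32 to 75.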
